A study of Arabidopsis thaliana with 15 samples.

Results

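The miR169 family of Arabidopsis thaliana and the NF-YA genes it targets were followed in leaves of prp4k3 and Col-0 plants. The members were all 18 rows of the small RNA table whose name begins with ath-miR169, of 427 rows in all. To these were added 9 of the 73194 features of the RNA table: the target genes NF-YA1 (AT5G12840), NF-YA2 (AT3G05690), NF-YA3 (AT1G72830), NF-YA5 (AT1G54160), NF-YA8 (AT1G17590), NF-YA9 (AT3G20910) and NF-YA10 (AT5G06510), and the loci MIR169a (AT3G13405) and MIR169k (AT3G26815). The rule selects by name and locus and sets no threshold on a measured value, but it was proposed with earlier results of these data known. Every one of the 27 members had a count in some library.

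Leaves came from plants grown for 3 weeks with no treatment. Col-0 is the wild-type accession. The prp4k3 line is given in the design text as amiR-PRP4K3, an artificial microRNA line; the labels used here do not state its promoter, the number of clones or any pooling of plants. Each genotype had 3 RNA-seq libraries of stranded total RNA and 3 separate small RNA libraries, so miRNA and mRNA levels were never read from the same library. The 3 RNA-seq samples of se-2 that the labels also list were not analysed here.

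NF-Y is a heterotrimeric transcription factor of A, B and C subunits, in which NF-YA recognises the CCAAT box of promoters. MIR169 loci give rise to primary transcripts that hold a hairpin, from which the 5p strand is cut as the usual guide and the 3p strand as its partner. In Arabidopsis miR169 guides cleavage of NF-YA mRNAs at a site in their 3' untranslated region, and the module is known for its response to drought and to nitrogen starvation. NF-YA4, NF-YA6 and NF-YA7 lack the site and serve as the relatives outside the module.

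RNA-seq totals lay between 16041754 and 19344157 counts. Small RNA totals were 792586 to 1156591 counts in Col-0 and 305617 to 636914 in prp4k3, and the prp4k3 small RNA values thus have the lower depth. Levels are given as CPM, read counts scaled to a common library size, after TMM scaling, which sets the bulk of features equal between libraries. A small RNA level is therefore relative to the other listed miRNAs. The labels do not say which PRP4K genes the artificial microRNA targets, so whether the levels of these genes check the line is not known here. PRP4KA (AT3G25840), the kinase in the series' title, had 11.1, 9.70 and 9.33 CPM in Col-0 and 6.42, 5.99 and 6.37 CPM in prp4k3. It fell by 0.68 on the log2 scale (SE 0.13, adjusted p = 0.00116), but lay at 0.16 under total-count scaling (adjusted p = 0.28). PRP4KB had a log2 fold change of -0.41 ± 0.18 (adjusted p = 0.0646; 0.43 under total-count scaling), and PRP4KC had 0 counts in all 6 libraries. SE, the SERRATE gene of the title, rose by 0.34 ± 0.11 on the log2 scale (adjusted p = 0.0233), but did not pass in the fits that left out Col-0 replicate 1 (0.25, adjusted p = 0.0897), or replicate 1 (0.32, adjusted p = 0.0697) or replicate 3 of prp4k3 (0.32, adjusted p = 0.0577). As to the labelled tissue, all 4 mesophyll markers were measured, the Rubisco small subunit gene RBCS1A at 19817 ± 2372 CPM in Col-0 (SD, n = 3). Of the 4 listed root genes, RHD6 and PLT1 had 0 counts. SHR, also on that list, was present, with 637 counts in Col-0 and 665 in prp4k3, and WOX5 had 5 counts in each genotype. Between libraries of a genotype, prp4k3 small RNA replicate 2 stood apart: its chi-square per degree of freedom was 257 against replicate 1 and 262 against replicate 3, compared with 8.71 between those.

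Mature miR169 was lower in prp4k3 in every tested row. Of the 18 rows, 14 passed the filter on low counts, and all 14 were called lower at an adjusted p under 0.05 in edgeR's quasi-likelihood test, where 18.6% of the 215 tested small RNA rows were called lower. Outside the family, 26 of 201 tested rows were called lower and 40 higher. In each of the 14 the highest prp4k3 library lay below the lowest Col-0 library, as it did in 28.4% of all tested rows, with 27.9% separated the other way. Without prp4k3 replicate 2, the library that stands apart, again 14 rows were called lower, with log2 fold changes of -1.23 for miR169f-3p, -0.98 for miR169d and -1.49 for miR169h. The falls ran from 1.04 to 2.16 on the log2 scale, with a median log2 fold change of -1.38 beside -0.14 for all tested rows. These 14 are fewer independent measurements than they seem, because rows of related members share reads. miR169d, miR169e, miR169f-5p and miR169g-5p differed by at most 1 count in any library, and the 7 rows from miR169h to miR169n lay within 22.0% of the highest of them. The 18 rows were therefore read as 8 groups, of which 5 were tested; with 1 row per group, chosen after seeing the data, all 5 were again called lower.

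The 3p strand of miR169f was the most abundant row of the family. It had 2502, 2425 and 2196 CPM in the Col-0 libraries and 999, 1107 and 991 CPM in the prp4k3 libraries. No prp4k3 library came near the lowest Col-0 value, and the row's level in Col-0 was 2.30 times that in prp4k3. The log2 fold change was -1.20 ± 0.16 (SE; adjusted p = 0.000545).

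The rows from miR169h to miR169n, whose loci include the MIR169i to MIR169n cluster, followed. For miR169m, the highest of them, values were 1344, 1192 and 982 CPM in Col-0 and 406, 516 and 425 CPM in prp4k3. For miR169h, the lowest, they were 1112, 996 and 822 CPM in Col-0 and 322, 402 and 362 CPM in prp4k3. In both rows the genotypes lay well apart. Across these 7 rows the log2 fold change ranged only from -1.43 to -1.38, with an SE of 0.18 to 0.19 and an adjusted p of 0.000545 in each.

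The 5p rows of miR169d to miR169g were represented by miR169d. It held 719.9, 687 and 649 CPM in Col-0 and 309, 314 and 376 CPM in prp4k3. Its mean was 685 ± 35.2 CPM in Col-0 against 333 ± 37.5 CPM for prp4k3 (SD, n = 3), again without overlap, and it fell by 1.04 on the log2 scale (SE 0.16, adjusted p = 0.000962).

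miR169a was scarcer. Its 5p strand had 185, 228 and 156 CPM in Col-0 and 83.7, 115 and 71.8 CPM in prp4k3, and it fell by 1.05 on the log2 scale (SE 0.25, adjusted p = 0.00828). The call did not hold without Col-0 replicate 1 (log2 fold change -0.93, adjusted p = 0.0594), prp4k3 replicate 1 (-0.68, adjusted p = 0.153) or prp4k3 replicate 3 (-0.67, adjusted p = 0.116). miR169a-3p had 40, 21 and 26 counts in Col-0 but 5, 2 and 1 in prp4k3. Its log2 fold change of -2.16 ± 0.48 (adjusted p = 0.00657) is the largest of the family and the least precise, and it passed the filter only through Col-0, where it is high. Without prp4k3 replicate 1 it was -2.73, and without prp4k3 replicate 3 it was -1.69.

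The other 4 rows were too low to test. miR169b-5p had 21, 15 and 12 counts in Col-0 and 4, 2 and 3 in prp4k3, and miR169c had 25, 19 and 15 against 4, 2 and 4. On the CPM scale the genotypes did not overlap in either row. miR169b-3p, with 3, 4 and 6 counts in Col-0 and 2, 3 and 4 in prp4k3, overlapped in CPM. miR169g-3p had 1 count, in Col-0 replicate 3. A floor of 3 counts stood at 2.65 to 3.80 CPM in Col-0 small RNA libraries and 5.77 to 8.62 CPM in prp4k3, so these rows lie near the limit of detection in prp4k3.

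**Figure D1:**
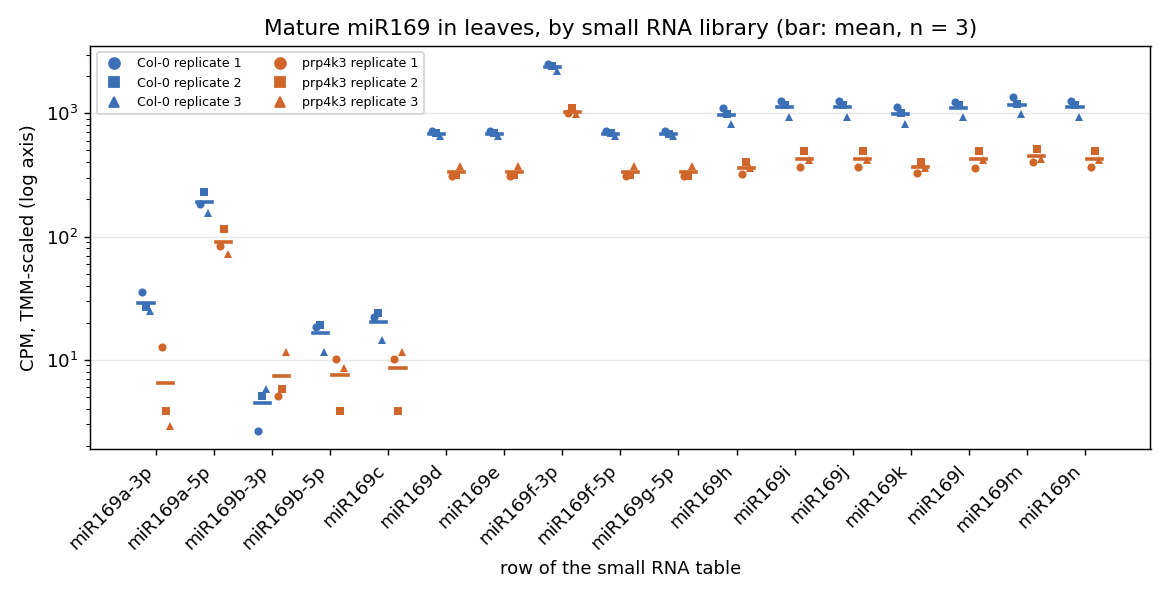
CPM (TMM-scaled, log axis) of 17 miR169 rows in each small RNA library, blue for Col-0 and orange for prp4k3, with the replicate given by the marker shape and the mean of 3 libraries as a bar; miR169g-3p, with 1 count in all, is left out. Except in miR169b-3p the prp4k3 points lie below the Col-0 points, as for miR169f-3p at a mean of 1032 against 2374 CPM and miR169b-5p at 7.54 against 16.3 CPM.

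The proportions within the family were read next. The mean of the rows in a group was taken as the value of that group. Summed over the groups, miR169 came to 0.460%, 0.449% and 0.381% of the library totals in Col-0. In prp4k3 it came to 0.203%, 0.165% and 0.212%. The library totals count every row, so these values are not true shares of the libraries. With every miR169 row added, the values were 1.395%, 1.326% and 1.097% in Col-0 and 0.556%, 0.473% and 0.617% in prp4k3. The libraries of the genotypes did not overlap in either form, and neither form needs a scaling factor. miR169f-3p made up 54.2% ± 1.15 of family counts in Col-0 against 54.7% ± 1.50 for prp4k3 (SD, n = 3; two-sided exact permutation p = 0.7).

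The miR169h to miR169n group held 24.7% ± 1.57 of family counts in Col-0 and 21.7% ± 1.57 in prp4k3 (exact permutation p = 0.2). For miR169d to miR169g 5p the shares were 15.7% ± 0.667 and 17.7% ± 2.33 (exact permutation p = 0.2), and for miR169a-5p they were 4.32% ± 0.639 and 4.76% ± 0.934 (exact permutation p = 0.7). All 3p rows together held 55.0% ± 1.17 in Col-0 and 55.4% ± 1.62 in prp4k3 (exact permutation p = 0.7). The share of miR169b-3p did not overlap, at 0.105% ± 0.0449 against 0.396% ± 0.191, but rests on 2 to 6 counts per library (exact permutation p = 0.1). miR169a-3p, at 0.657% ± 0.0847 against 0.352% ± 0.312 (p = 0.3), miR169b-5p with miR169c (p = 0.9) and miR169g-3p (p = 1) completed the exact permutation tests of the 8 groups. With 3 libraries against 3 such a test cannot go below 0.1, so a p above it shows neither equality nor difference of these shares. The ratio of miR169f-3p to the miR169d to miR169g 5p group was 3.48, 3.53 and 3.38 in Col-0 and 3.23, 3.53 and 2.64 in prp4k3, with overlap between the genotypes.

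In the separate RNA-seq libraries MIR169a and MIR169k, the only MIR169 loci tested, were called lower. MIR169a had 17, 23 and 21 counts in Col-0 against 4, 2 and 5 in prp4k3, or 1.46 ± 0.175 against 0.166 ± 0.0685 CPM (SD, n = 3). It fell by 3.08 on the log2 scale (SE 0.35, adjusted p = 5.07e-05), where 31.9% of 18609 tested RNA-seq features were called lower. MIR169k had 16, 23 and 13 counts in Col-0 against 6, 8 and 11 in prp4k3, which was 1.23 ± 0.303 against 0.379 ± 0.121 CPM. Its fall was 1.70 on the log2 scale (SE 0.34, adjusted p = 0.00169). In both loci no prp4k3 library reached the lowest Col-0 library in CPM, as in 34.0% of all tested features. Both passed the filter only through the Col-0 libraries, where they are high, so this separation is no independent support. Both were also called lower under total-count scaling, at -2.26 (adjusted p = 0.000287) and -0.87 (adjusted p = 0.0443). A filter of 1 CPM in 3 libraries removed both loci.

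MIR169a overlaps the protein-coding locus AT3G13404 in the RefSeq gene table, and whether the authors' counting used strand is not given, so their reads cannot be told apart. AT3G13404 had 44, 46 and 37 counts in Col-0 and 15, 5 and 8 in prp4k3, a log2 fold change of -2.83 ± 0.31 (adjusted p = 3.9e-05). MIR169k overlaps no other gene of that table.

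The other 12 MIR169 loci did not pass the filter on low counts. With no filter 10 of them were tested and 3 called lower, beside 5967 of all 28246 features tested in that setting. The other 2, MIR169b and MIR169d, had 0 counts in all 6 libraries. MIR169i to MIR169n lie close together, with 2 genes between MIR169j and MIR169k and none between the others. Summed over these 6 loci, counts were 58, 48 and 34 in Col-0 and 14, 16 and 24 in prp4k3. After scaling, the prp4k3 sum was 0.243 of the Col-0 sum (exact 95% interval 0.174 to 0.335, for counting error only), and this sum contains MIR169k. MIR169l, with 15, 7 and 5 against 2, 2 and 3 counts, and MIR169m, with 9, 6 and 14 against 2, 5 and 7, made up most of the rest. MIR169i had 11, 9 and 0 counts in Col-0 and 1, 1 and 0 in prp4k3, so its Col-0 libraries disagreed. MIR169j (9 against 3 counts over the genotype) and MIR169n (3 against 3) were sparser. Of the loci outside the cluster, MIR169c, MIR169e, MIR169f, MIR169g and MIR169h had at most 3 counts in either genotype. The loci of the abundant miR169f-3p row and of the miR169d to miR169g 5p rows thus had nearly no reads in RNA-seq.

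Among the 7 NF-YA targets the change went both ways. NF-YA3, NF-YA5, NF-YA8 and NF-YA9 rose, NF-YA1 and NF-YA2 fell (but rose under total-count scaling), and NF-YA10 did not pass. Of these genes NF-YA5 and NF-YA9 overlap others, as given below. The background was 33.9% of all tested features called higher and 31.9% called lower, so 4 and 2 of 7 genes is to be read against a transcriptome in which 65.8% of features were called. The 3 prp4k3 libraries lay above all Col-0 libraries in 5 of the 7 genes and below them in 2, as in 36.5% and 34.0% of all tested features. The median log2 fold change of the 7 genes was 0.60, which is the value of NF-YA10, beside 0.02 for all tested features. It was 0.37 without prp4k3 replicate 1. Under total-count scaling the direction of NF-YA1 and NF-YA2 turned and all 7 genes were called higher, while the median of all features moved from 0.02 to 0.86. Of all 18609 tested features, 12490 were called higher and 1825 lower under that scaling. The changes given here are relative to the TMM scale. In leaf RNA, fewer cells of a type and less RNA per cell cannot be told apart.

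NF-YA8, which in Arabidopsis acts with NF-YA3 in early embryo development, rose most. It had 1.33, 1.15 and 1.26 CPM in Col-0 and 3.19, 2.97 and 2.89 CPM in prp4k3. The prp4k3 level was 2.42 times that of Col-0, a log2 fold change of 1.27 ± 0.19 (adjusted p = 0.000279). In all 15 alternatives it remained called higher, from 1.21 to 2.11 on the log2 scale.

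NF-YA3, the partner of NF-YA8 in early embryos, was also called higher in all 15 alternatives. Its values were 1.84, 1.02 and 1.11 CPM in Col-0 and 2.71, 2.56 and 2.75 CPM in prp4k3, with Col-0 replicate 1 higher than its partners but still below each prp4k3 library. The log2 fold change was 1.01 ± 0.24 (adjusted p = 0.00458), and 1.31 without Col-0 replicate 1. Neither NF-YA3 nor NF-YA8 overlaps another gene of the RefSeq table.

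NF-YA5 is known in Arabidopsis for promoting drought tolerance and for expression in guard cells and vascular tissue. It had 0.959, 0.950 and 0.889 CPM in Col-0 and 1.62, 2.42 and 1.37 CPM in prp4k3, where replicate 2 was the highest. It rose by 0.94 ± 0.29 on the log2 scale (adjusted p = 0.0163), a call lost without prp4k3 replicate 2 (0.67, adjusted p = 0.0503). NF-YA5 overlaps AT1G54150, which also rose, from 4.47 ± 0.273 to 9.21 ± 1.04 CPM (SD, n = 3; log2 fold change 1.04 ± 0.15, adjusted p = 0.00018). It also overlaps the noncoding RNA locus AT1G07943, for which no counts were available. Without the strand of the reads, counts of these neighbours cannot be told apart.

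NF-YA9, which takes part in pollen and embryo development in Arabidopsis, had 3.76, 3.80 and 3.55 CPM in Col-0 and 5.59, 4.79 and 4.85 CPM in prp4k3. The genotypes did not overlap, and the log2 fold change was 0.45 ± 0.15 (adjusted p = 0.0226). The call was lost in DESeq2 (0.44, adjusted p = 0.0835) and in the fits without Col-0 replicate 1 (0.45, adjusted p = 0.05003), replicate 2 (0.46, adjusted p = 0.0545) or replicate 3 (0.42, adjusted p = 0.0678), or without prp4k3 replicate 1 (0.37, adjusted p = 0.0923). NF-YA9 overlaps AT3G20920, which had more counts and rose by 0.77 ± 0.13 on the log2 scale (adjusted p = 0.000499). The reads of this pair cannot be told apart either.

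NF-YA10, which acts in leaf growth in Arabidopsis, had the fewest counts of the targets, with 7, 13 and 11 counts in Col-0 and 34, 19 and 22 in prp4k3. Its CPM were 0.517, 0.882 and 0.815 in Col-0 and 1.48, 0.883 and 1.01 in prp4k3, so the lowest prp4k3 library and the highest Col-0 library were nearly level. The log2 fold change of 0.60 ± 0.33 did not pass (adjusted p = 0.131), but passed under total-count scaling (1.44, adjusted p = 0.00248). It was 0.34 without prp4k3 replicate 1 (adjusted p = 0.409) and 0.40 without Col-0 replicate 1 (adjusted p = 0.36).

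NF-YA1, which takes part in pollen and embryo development in Arabidopsis, had the most counts of the 7. It stood at 21.3, 21.6 and 20.0 CPM in Col-0 and 17.1, 15.2 and 16.0 CPM in prp4k3. It fell by 0.38 on the log2 scale (SE 0.11, adjusted p = 0.00991), without overlap between the genotypes, but rose by 0.46 under total-count scaling (adjusted p = 0.00342).

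NF-YA2, which like NF-YA10 acts in leaf growth in Arabidopsis, had 3.84, 4.48 and 4.30 CPM in Col-0 and 3.10, 3.07 and 3.16 CPM in prp4k3. It fell by 0.44 on the log2 scale (SE 0.15, adjusted p = 0.0291), or rose by 0.40 under total-count scaling (adjusted p = 0.0373). This was the weakest call of the 7, lost in 7 of 15 alternatives, with an adjusted p of up to 0.0974 in DESeq2. With the replicate number as a block it was 0.0569. It was also lost without Col-0 replicate 2 (adjusted p = 0.0897) or 3 (0.067), and without prp4k3 replicate 1 (0.0688) or 3 (0.0585).

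**Figure D2:**
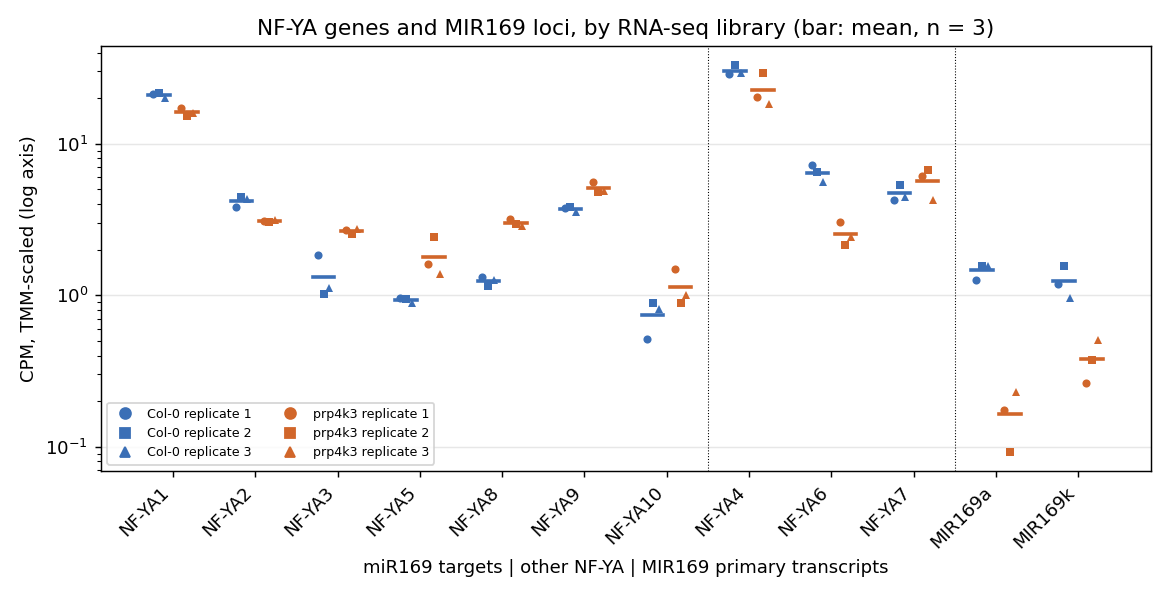
CPM (TMM-scaled, log axis) of the 7 NF-YA targets, the 3 other NF-YA genes and MIR169a and MIR169k in each RNA-seq library, with blue for Col-0, orange for prp4k3, marker shape for the replicate and a bar at the mean of 3 libraries. NF-YA3, NF-YA5, NF-YA8 and NF-YA9 sit higher in prp4k3 and NF-YA1 and NF-YA2 slightly lower (the reverse of total-count scaling), while MIR169a drops from 1.46 to 0.166 CPM.

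Of the 3 NF-YA genes without a miR169 site, 0 were called higher and 2 lower on the TMM scale, beside 33.9% and 31.9% of all tested features. NF-YA4 and NF-YA7 were called higher under total-count scaling, as were 12490 of all 18609 tested features. NF-YA6, a relative of NF-YA1 and NF-YA9 in Arabidopsis embryo development, had 7.23, 6.51 and 5.63 CPM in Col-0 and 3.06, 2.14 and 2.43 CPM in prp4k3. The groups lay apart, and the fall of 1.34 on the log2 scale (SE 0.18, adjusted p = 0.000151) was called in every alternative, including total-count scaling (-0.50, adjusted p = 0.0328). NF-YA6 overlaps the noncoding RNA locus AT3G02825, for which no counts were available, so their reads cannot be told apart. NF-YA4, part of an endoplasmic reticulum stress complex, had 28.9, 33.0 and 29.1 CPM in Col-0 and 20.5, 29.1 and 18.4 CPM in prp4k3. Prp4k3 replicate 2 reached into the Col-0 range, and the call (log2 fold change -0.42 ± 0.17, adjusted p = 0.0494) was lost in 6 of 15 alternatives and turned to 0.42 under total-count scaling (adjusted p = 0.0467).

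NF-YA7, whose overexpression restrains growth in Arabidopsis, had 4.28, 5.36 and 4.44 CPM against 6.11, 6.74 and 4.26 CPM and overlapped. Its log2 fold change of 0.28 ± 0.20 did not pass (adjusted p = 0.242), but was 1.12 under total-count scaling (adjusted p = 0.000617). It was 0.13 without prp4k3 replicate 2 (adjusted p = 0.575) and 0.44 without prp4k3 replicate 3 (adjusted p = 0.0527). Whether targets and non-targets differ in their change was not tested, and the ranges of their log2 fold changes, -0.44 to 1.27 and -1.34 to 0.28, overlapped.

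**Figure D3:**
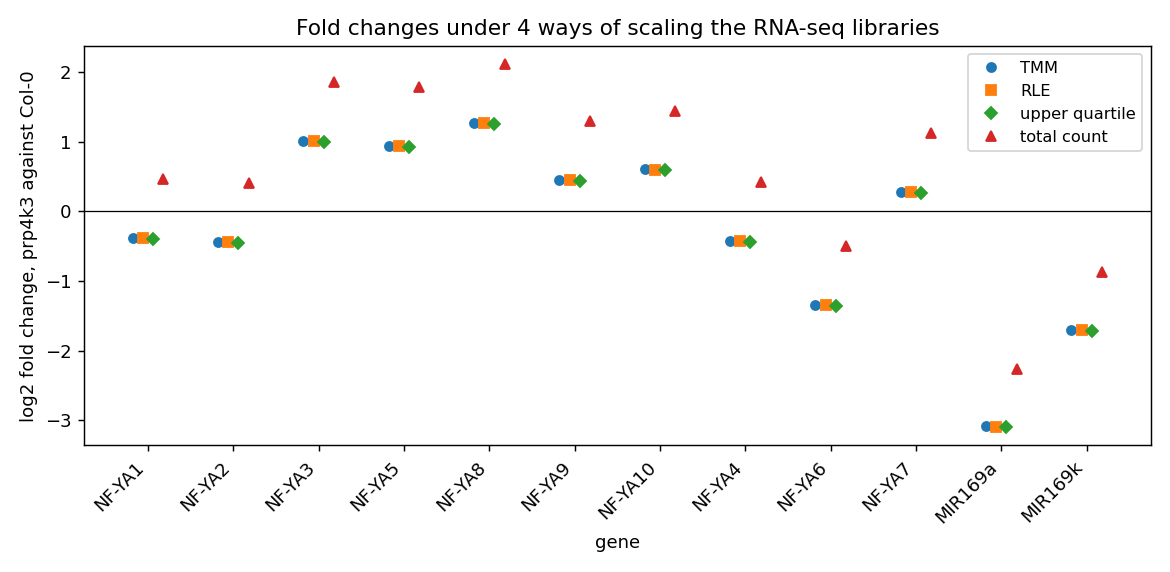
Log2 fold change (prp4k3 against Col-0) of the 10 NF-YA genes and MIR169a and MIR169k under TMM, RLE, upper-quartile and total-count scaling of the RNA-seq libraries. The first 3 scalings nearly coincide, and total-count scaling shifts every gene upward, which moves NF-YA1, NF-YA2 and NF-YA4 across 0 but leaves MIR169a at -2.26 and MIR169k at -0.87.

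Shares among the 10 NF-YA genes do not depend on the scaling of the libraries. They are shares of counts, not corrected for transcript length. In each library they add up to a fixed whole, so a share also rises where counts of other NF-YA genes fall. NF-YA8 made up 1.79%, 1.47% and 1.77% of NF-YA counts in Col-0 and 4.95%, 4.26% and 5.05% in prp4k3. NF-YA3 went from 1.78% ± 0.629 to 4.22% ± 0.576, NF-YA5 from 1.25% ± 0.0446 to 2.79% ± 0.581, NF-YA9 from 4.97% ± 0.131 to 8.00% ± 1.01 and NF-YA10 from 0.988% ± 0.252 to 1.78% ± 0.520 (SD, n = 3). In each of these 5 targets the lowest prp4k3 library lay above the highest Col-0 library. They were separated in CPM as well, where 36.5% of all tested features were separated in that direction. Reads of NF-YA5 and NF-YA9 cannot be told apart from those of the genes they overlap. NF-YA1 overlapped between genotypes, at 28.8%, 27.4% and 28.1% against 26.6%, 21.7% and 28.0%, and so did NF-YA2. Among the genes without a site, NF-YA7 also had a higher share, from 6.28% ± 0.515 to 8.86% ± 1.22 with no overlap, though its CPM overlapped. NF-YA4, the gene with the largest share, overlapped, at 40.6% ± 1.43 in Col-0 and 35.2% ± 5.60 in prp4k3. The share of NF-YA6 was 8.65% ± 0.983 in Col-0 and 4.02% ± 0.865 in prp4k3. Summed, the 7 targets held 45.4%, 43.0% and 44.9% in Col-0 and 54.0%, 45.6% and 56.1% in prp4k3.

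**Figure D4:**
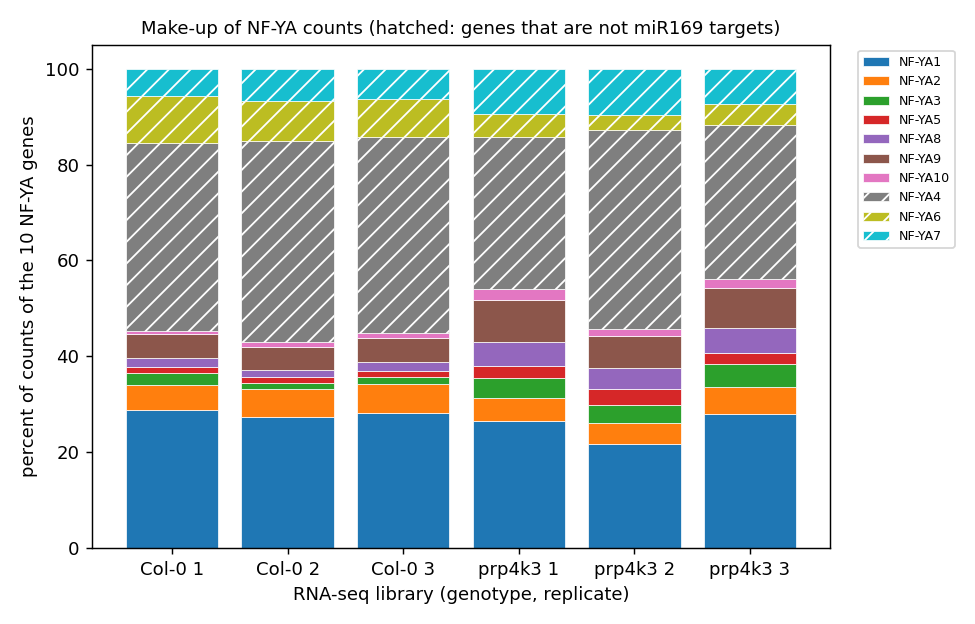
Percent of the summed counts of the 10 NF-YA genes held by each gene, 1 stacked bar for each RNA-seq library; hatched segments are the 3 genes that are not miR169 targets. NF-YA3, NF-YA5, NF-YA7, NF-YA8, NF-YA9 and NF-YA10 take up more of each prp4k3 bar, with NF-YA8 at 4.26% to 5.05% against 1.47% to 1.79%, and NF-YA6 takes up less.

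The partner subunits were read from lists of all NF-YB and NF-YC genes. Of 10 NF-YB genes 5 were tested, with 0 called higher and 3 lower, beside 33.9% and 31.9% of all tested features, and a median log2 fold change of -0.60. Total-count scaling gave 2 higher and 2 lower calls, beside 12490 and 1825 of all 18609 tested features, and turned the median to 0.24. NF-YB3, which acts in photoperiodic flowering and in the stress complex with NF-YA4, had 16.8, 17.6 and 11.6 CPM in Col-0 and 3.32, 3.30 and 2.56 CPM in prp4k3. Its fall of 2.32 on the log2 scale (SE 0.20, adjusted p = 7.34e-06) left no overlap. NF-YB2, its close relative in flowering, fell by 1.47 on the log2 scale (SE 0.16, adjusted p = 3.65e-05), from 48.3 ± 7.84 to 17.4 ± 2.86 CPM (SD, n = 3).

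Of 13 NF-YC genes 9 were tested, with 3 called higher and 4 lower, close to the 33.9% and 31.9% of all tested features, and a median of 0.34. Total-count scaling gave 6 higher and 2 lower calls, beside 12490 and 1825 of all 18609 tested features, with a median of 1.18. NF-YC1 fell by 1.62 on the log2 scale (SE 0.15, adjusted p = 1.38e-05), from 26.0 ± 5.15 to 8.49 ± 0.243 CPM. NF-YC2, the C subunit of the stress complex, went the other way, from 5.68, 6.24 and 8.22 CPM to 20.7, 17.6 and 15.6 CPM, a rise of 1.42 ± 0.17 (adjusted p = 6.5e-05). These 4 partners kept their direction and call in all 15 alternatives.

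**Figure D5:**
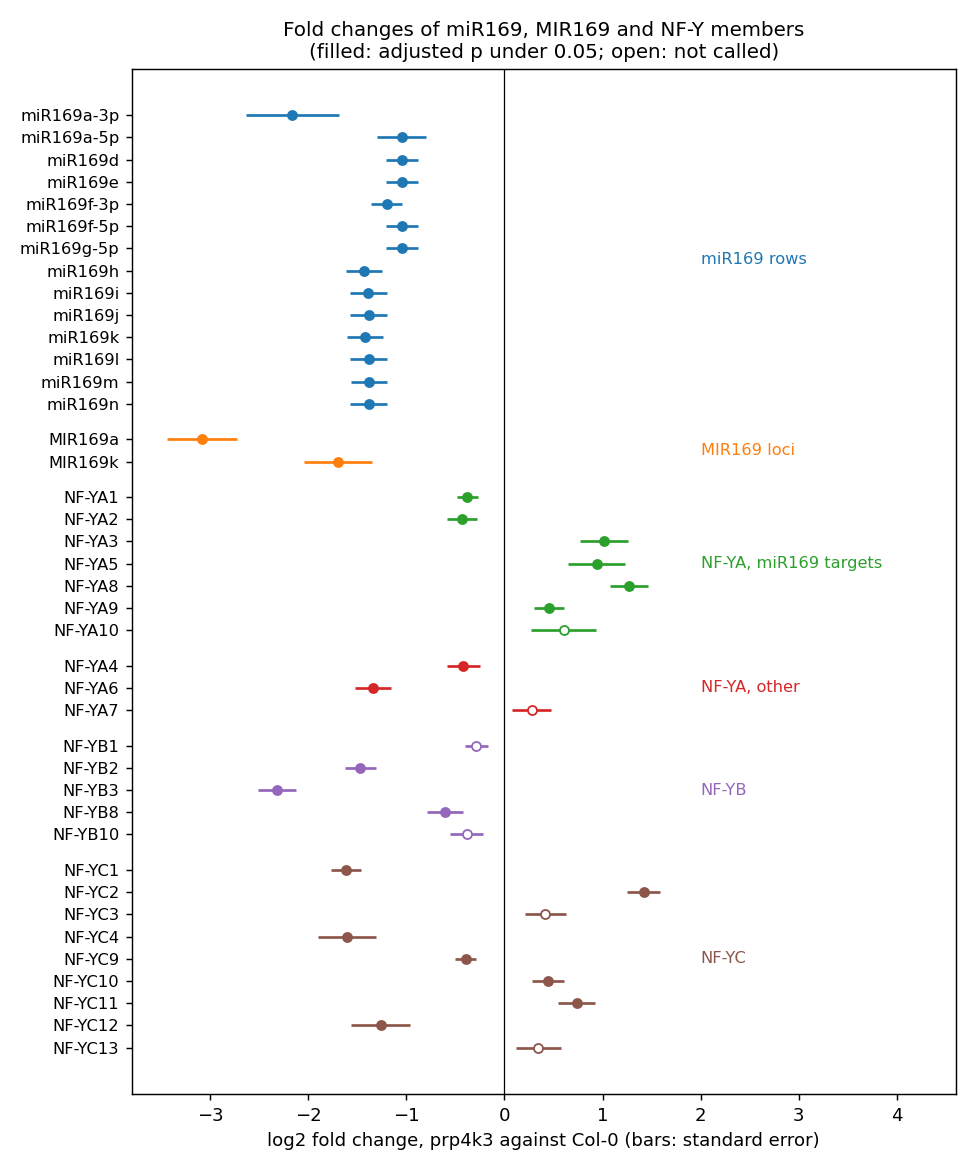
Log2 fold change (prp4k3 against Col-0, TMM scale) of the tested miR169 rows, MIR169a and MIR169k, and NF-Y subunit genes, with bars of 1 standard error; filled points were called at an adjusted p under 0.05. All miR169 rows and both MIR169 loci lie left of 0, and the NF-YA targets lie on both sides, from -0.44 to 1.27 (all above 0 under total-count scaling).

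Nitrate genes were read because the module is known in nitrogen starvation. Of 6 genes of nitrate uptake and reduction 4 were tested, with 0 higher and 3 lower, beside 31.9% of all tested features called lower, and a median log2 fold change of -1.31. Total-count scaling gave 1 higher and 2 lower calls, beside 12490 and 1825 of all 18609 tested features, with a median of -0.47. NIA2, a nitrate reductase, fell by 1.47 on the log2 scale (SE 0.12, adjusted p = 7.41e-06), from 1367 ± 194 to 492 ± 45.2 CPM. NRT1.1, a nitrate transporter and sensor, had 113, 130 and 174 CPM in Col-0 and 39.2, 63.0 and 35.4 CPM in prp4k3, and fell by 1.60 (SE 0.23, adjusted p = 0.000216).

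Cell type markers were read beside a background of 65.8% of all tested features called. The 4 mesophyll markers all fell, and their summed level went from a range of 27085 to 30650 CPM in Col-0 to 8486 to 9636 CPM in prp4k3. Of 4 guard cell markers 1 rose (KAT1, a potassium channel), 2 fell (MYB60 and GC1) and FAMA did not pass, with sums of 44.8 to 50.6 and 24.8 to 28.0 CPM. Of 4 vascular markers 1 rose (ATHB8), 1 fell (SWEET11) and 2 did not pass; their median log2 fold change was -0.03, with sums of 130 to 137 and 120 to 127 CPM.

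Among 6 shoot apex and flower genes the sums were 7.67 to 10.7 and 8.22 to 15.1 CPM. Of the 3 tested, the meristem gene STM fell (log2 fold change -0.96 ± 0.24, adjusted p = 0.00599), KNAT1 rose (0.89 ± 0.27, adjusted p = 0.0164) and the flower gene AP1 was called higher. AP1 passed the filter only through prp4k3, where it is high, with 0, 2 and 1 counts in Col-0 and 42, 11 and 25 in prp4k3. The untested genes were AP3, with 0, 1 and 0 against 32, 5 and 13 counts, CLV3, with 1 count in each Col-0 library and 0 in prp4k3, and WUS, with 0 counts in Col-0 and 3, 1 and 1 in prp4k3. Of the 4 genes listed as root genes 1 was tested, SHR, which fell, and the sums were 14.4 to 17.3 and 8.84 to 11.1 CPM. Under total-count scaling the calls higher and lower were 0 and 4 for mesophyll, 2 and 1 for guard cell, 4 and 0 for vascular and 2 and 0 for shoot apex and flower genes, and SHR was not called. For all 18609 tested features they were 12490 and 1825. The part of these markers in the NF-YA changes was not tested.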

How the data were processed

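The authors' deposited tables hold whole-number read counts per feature (RNA-seq) and per named miRNA (small RNA) for 12 libraries. Beside these stand the authors' scaled values for each library (a score in whole numbers, deposited as such) and the authors' fold change (a ratio), log2 fold change, p-value and adjusted p-value, per the file headers. TopHat2, SAMtools, HTSeq and edgeR are named in the submitters' processing notes, with versions, strand setting and build not given in the sources used here.

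In R 4.3.3, edgeR 4.0.16 tested the counts (filterByExpr with a minimum count of 10, TMM factors, quasi-likelihood F-test of genotype, Benjamini-Hochberg adjustment over all tested features, called under 0.05). Levels are CPM with standard deviations over 3 libraries, and ± after a log2 fold change is its standard error. The tests were checked on simulated data with the same spread for every feature and changes placed only in well-counted features. That check does not cover members with few counts, such as the MIR169 loci and miR169a-3p. It also does not cover a library that stands apart, as prp4k3 small RNA replicate 2 does. Gene names come from a RefSeq table (TAIR10.1), which gave the listed name for all but GC1 and the 3 PRP4K loci; gene overlaps and gene order were read from that table, whose build may differ from that of the counts, and no coordinates are given. The members and all gene lists were chosen with earlier results of these data known; every member, NF-YA gene and MIR169 locus with a count is named, and from the NF-YB, NF-YC and nitrate lists the 2 called genes of lowest adjusted p. Overlapping genes were added as the gene table gave them, with levels only for those that had counts. Alternatives used RLE, upper-quartile and total-count scaling, other filters, DESeq2 1.42.0, limma-voom (limma 3.58.1), the replicate number as a block, tables without organelle and rRNA genes or without duplicate rows, and each library left out in turn. No label states separate plants for the libraries, and the p-values therefore reflect only how these samples spread, possibly for technical reasons. Each pair of libraries of a genotype differed beyond sampling noise in a chi-square comparison. Intervals and floors cover counting error only.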

Additional observations from a re-analysis of the deposited data

How the results depend on the processing

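Of 526 values of 35 single features under the alternatives, 493 kept their direction and side of the threshold, 25 lost the call, 3 gained it and 5 turned, all 5 under total-count scaling of RNA-seq: NF-YA1 (0.46), NF-YA2 (0.40), NF-YA4 (0.42), PRP4KA (0.16) and PRP4KB (0.43). That scaling gave 12490 features higher and 1825 lower (87.3% of calls higher, against 51.5%), and 7 NF-YA targets higher and 0 lower; in small RNA it gave 25 rows lower. The number of NF-YA targets called lower was 1 with no low-count filter, in DESeq2 and with the replicate block, and 1 to 2 with a library left out, where 3 to 4 were called higher. MIR169 loci called lower numbered 5 with no filter and 0 under the 1 CPM filter, where more or none of them were tested. With no filter 5967 of 28246 RNA-seq features were called lower. Small RNA rows called lower ranged from 24 to 51, and called rows from 58 to 103, with a library left out (40 and 80 with all; the lower calls numbered 25 without Col-0 replicate 1 and 24 without prp4k3 replicate 1); miR169 rows called lower ranged from 13 to 14, and were 5 with 1 row per group. Counting every row moved the difference in share (prp4k3 minus Col-0) to 0.103 percentage points for miR169b-3p and to -4.85 for miR169h to miR169n. The cause of these moves was not tested, other than the number of loci or rows entering. The replicate numbers were not shown to pair the libraries: deviations of same-numbered libraries correlated at -0.05, 0.05 and -0.05 in RNA-seq and -0.24, -0.02 and -0.08 in small RNA. With the replicate block 11875 RNA-seq features and 69 small RNA rows were called, against 12253 and 80. Depth limits the MIR169 loci and the miR169b and miR169c rows.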

Other observations

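The authors' deposited table differs from the calls above in a few members. The authors' deposited table lists miR169f-3p with a log2 fold change of -1.14 and an adjusted p of 0.0901, NF-YA2 with -0.40 and 0.0802, and NF-YA4 with -0.39 and 0.0688, none of them under 0.05. The authors' deposited table lists miR169c, which the filter here removed, with a log2 fold change of -1.31 and an adjusted p of 0.019.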
